A study of Mus musculus with 53 samples.

Results

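ERK response genes are genes whose transcription is known to follow the activity of the kinase ERK. The 7 followed here, of 21938 protein-coding genes, were Spry2, Spry4, Dusp4, Dusp6, Etv4, Etv5 and Egr1. They were chosen by name, as members of the pathway, and not by their values. Each gene was taken with its gene body and 50 kb on each side, and all peaks of the 35 deposited peak lists in that window were read.

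ERK is the last kinase of a cascade in which growth factors such as FGF4 act through RAS, RAF and MEK, and MEK phosphorylates ERK. In mouse embryonic stem cells (ESCs) this cascade opposes naive self-renewal, and in the blastocyst it directs cells toward primitive endoderm (PrE), the first extra-embryonic endoderm. Its targets include its own brakes. SPRY2 and SPRY4 are Sprouty proteins, which dampen receptor signalling upstream of ERK. DUSP6 and DUSP4 are phosphatases that switch off ERK in the cytoplasm and in the nucleus. ETV4 and ETV5 are transcription factors of the ETS family, and EGR1 is a zinc finger factor made within minutes of ERK activation.

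The cells were SOX2-GFP/GATA6-mCherry (SGGC) reporter ESCs made from E14JU cells of the 129/Ola background, in which SOX2 is fused to GFP and GATA6 to mCherry. All groups carried both alleles, and the libraries came from 2 clones, B9 and B12. The 2iLIF medium holds the MEK inhibitor PD0325901, the GSK3 inhibitor CHIR99021 and LIF. NACL is N2B27 with Activin A, CHIR99021 and LIF, so it lacks the MEK inhibitor and adds Activin A, and the effects of these agents cannot be told apart. SOX2+ cells and double-positive (DP) cells, which hold SOX2 and GATA6 together, were sorted from KOSR culture, and all their libraries were labelled clone B12. Naive endoderm (nEnd) is a self-renewing PrE culture kept in RACL medium. The paper states that NACL has the cytokines of nEnd culture and another base medium only. By that account nEnd culture also lacks the MEK inhibitor, so in nEnd minus 2iLIF cell type and medium cannot be told apart. The main text of the paper does not list the agents in KOSR medium. CUT&RUN, which cuts and sequences DNA where an antibody sits, was run for H3K27ac, a mark of active enhancers and promoters, for H3K4me1, a mark of enhancers, and for SOX2 and GATA6.

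H3K27ac and H3K4me1 had 2 libraries each in 2iLIF, NACL, SOX2+ and nEnd. DP had 1 library of each mark, so its values are given without a test. A further H3K27ac and a further H3K4me1 library, titled B_DP, name SOX2+ cells in another label, entered no comparison and are given apart. SOX2 had 2 libraries in 2iLIF, 2 in NACL, 3 in SOX2+ and 3 in DP, and GATA6 had 3 in DP and 2 in nEnd. Both NACL H3K4me1 titles and that of nEnd 2, and neither 2iLIF one, hold the same 6-digit number, which no source explains. What it marks and the medium cannot be told apart. Both nEnd H3K4me1 libraries came from clone B9.

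The sites below are shown because the results on SOX2 and GATA6 turn on them. They were read from GRCm38.p6 over 200 bases around the highest point of the peak and are written on the strand of the gene. Capitals mark CATTGT, a core bound by SOX factors, and AGATAA, a core bound by GATA factors, on either strand. Neither core overlaps the other in these sites. The upstream Spry2 site (chr14:105900774-105900973, minus strand) held a GATA6 peak in all 3 DP lists and both nEnd lists. The downstream Spry2 site (chr14:105862218-105862417, minus strand) held a SOX2 peak in all 8 lists of NACL, SOX2+ and DP and in neither list of 2iLIF. It also overlapped a GATA6 site of DP A, DP A1 and both nEnd lists. The Dusp4 promoter site (chr8:34806501-34806700, plus strand) held SOX2 in NACL and SOX2+ and in neither 2iLIF list. The upstream Dusp4 site (chr8:34763880-34764079, plus strand) held GATA6 in both nEnd lists and in DP A. The downstream Dusp6 site (chr10:99293326-99293525, plus strand) held SOX2 in 9 of 10 lists and GATA6 in 4 of 5. The Etv5 site (chr16:22402625-22402824, minus strand), in an intron, held SOX2 in all 10 lists.
Spry2 upstream GATA6 site: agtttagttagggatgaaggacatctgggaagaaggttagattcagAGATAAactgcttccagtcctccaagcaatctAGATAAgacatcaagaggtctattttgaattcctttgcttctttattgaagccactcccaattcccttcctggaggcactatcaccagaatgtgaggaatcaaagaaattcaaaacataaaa
Spry2 downstream SOX2 site: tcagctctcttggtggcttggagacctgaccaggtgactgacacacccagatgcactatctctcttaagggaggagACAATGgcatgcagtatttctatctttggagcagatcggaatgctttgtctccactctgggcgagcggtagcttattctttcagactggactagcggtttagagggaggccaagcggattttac
Dusp4 promoter SOX2 site: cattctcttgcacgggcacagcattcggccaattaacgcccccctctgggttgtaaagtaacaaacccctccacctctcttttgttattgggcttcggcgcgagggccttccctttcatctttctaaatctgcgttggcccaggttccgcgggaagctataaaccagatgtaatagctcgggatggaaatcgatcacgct
Dusp4 upstream GATA6 site: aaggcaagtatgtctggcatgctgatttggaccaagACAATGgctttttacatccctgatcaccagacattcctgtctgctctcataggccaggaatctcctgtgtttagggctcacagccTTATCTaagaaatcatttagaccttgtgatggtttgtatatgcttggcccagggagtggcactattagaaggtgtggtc
Dusp6 downstream site: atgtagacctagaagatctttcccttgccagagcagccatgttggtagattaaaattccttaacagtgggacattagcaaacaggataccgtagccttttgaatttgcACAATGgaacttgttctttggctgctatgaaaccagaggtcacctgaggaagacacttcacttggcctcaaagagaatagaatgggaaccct
Etv5 intronic SOX2 site: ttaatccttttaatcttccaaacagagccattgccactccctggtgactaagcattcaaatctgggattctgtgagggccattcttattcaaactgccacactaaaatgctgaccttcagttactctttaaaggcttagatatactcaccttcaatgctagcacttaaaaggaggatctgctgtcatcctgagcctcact

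The upstream Spry2 site carried 2 AGATAA cores, and the downstream Spry2 and Dusp6 sites carried 1 CATTGT core each. The upstream Dusp4 site carried 1 core of each kind, and the Dusp4 promoter and Etv5 sites carried neither. Over all member sites, 15 of 63 SOX2 sites (23.8%) had CATTGT within the same 200 bases, and 29.3 to 42.5% of all peaks did in the SOX2 lists. AGATAA lay in 25 of 39 GATA6 sites (64.1%), and in 55.7 to 76.8% of all peaks of the GATA6 lists. A match is a description of the letters and not of binding.

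The lists differed widely in length, from 13514 to 401853 peaks for H3K27ac, from 18627 to 130749 for H3K4me1 and from 1378 to 32510 for the factors. Peak signal is not scaled between libraries, and how deeply they were sequenced is unknown. The measure was therefore the percentile of a gene window among all 21938 protein-coding windows of the same library, ranked by summed peak signal. For a window with a peak, a percentile of 80 means that 80% of windows ranked lower. All windows without a peak in a library are tied and are given the middle of their ranks, so their percentile is above 0 though no window has less signal. Windows differ in length, so percentiles are compared between libraries and not between genes. For tests the ranks were turned into normal scores, on which 1 unit is 1 SD over all windows, and compared with limma. In bulk cells, fewer cells with a mark and less of the mark per cell cannot be told apart. As a check of the nEnd label, 9 of 9 PrE markers were called higher than in 2iLIF for each mark and 5 of 7 naive markers lower, where 25.0% of all windows were called higher and 22.6% lower for H3K27ac and 18.9% and 20.6% for H3K4me1.

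**Figure D1:**
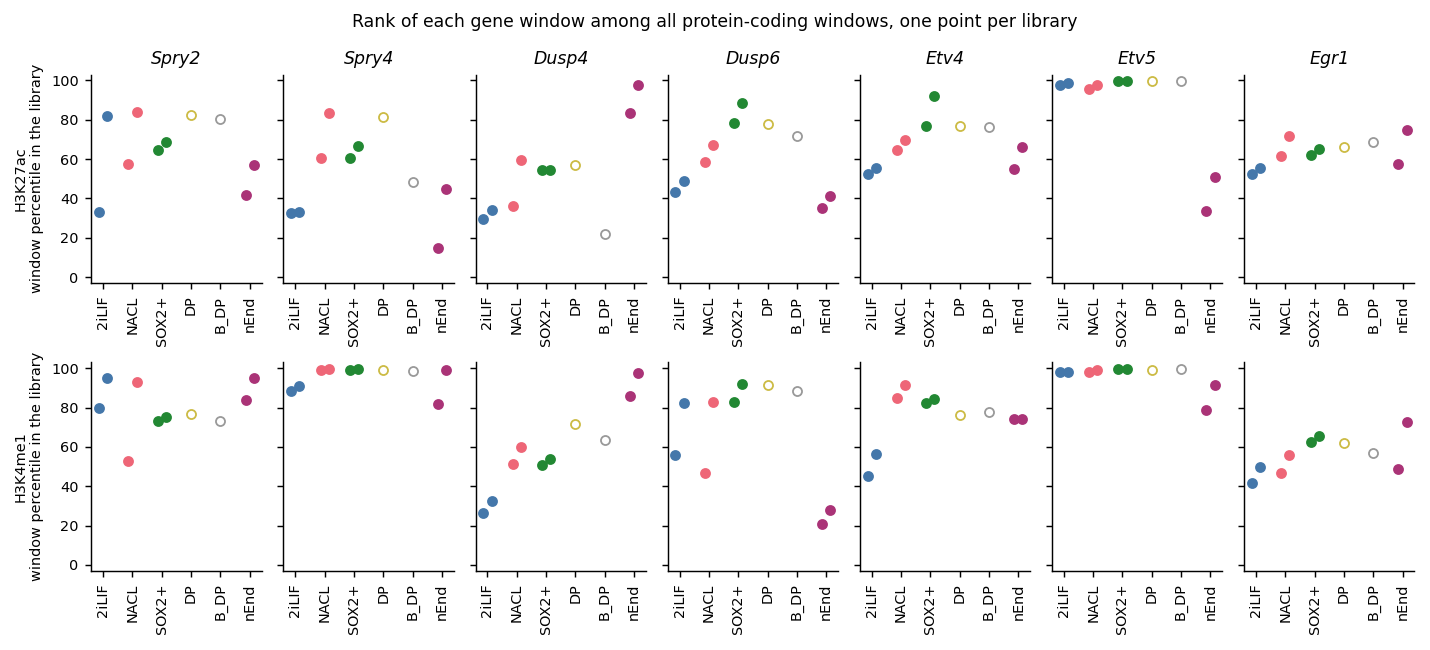
Window percentile (y axis, percent of windows ranked lower) of each gene for H3K27ac (top) and H3K4me1 (bottom), with 1 point per library in 2iLIF, NACL, SOX2+, DP, B_DP and nEnd (x axis); open points are the single DP and B_DP libraries, and points of a group are spread sideways in order of value. The 2iLIF points of Etv4 for H3K4me1 lie at 45.4 and 56.3, below its NACL points at 84.7 and 91.2.

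The first comparison asked what differed at these genes between culture with a MEK inhibitor and culture without one. For H3K27ac, 5 of the 7 genes had both NACL libraries above both 2iLIF libraries, against 22.3% of all windows, and none had them below, against 19.4%. None of the 7 passed the test, and 0 of 21291 windows passed it in either direction (limma, adjusted p under 0.05; 0.0% called higher and 0.0% called lower). At an unadjusted p under 0.05 there were 2275 windows (10.7%), among them 1 of the 7, Spry4. The members' median score difference was 0.36, beside 0.02 over all windows.

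Among the Sprouty genes, Spry4 (chr18:38586247-38601415, minus strand) stood at H3K27ac percentiles 32.5 and 33.3 in 2iLIF B9 and B12, and at 60.8 and 83.3 in NACL B9 and B12. The groups did not overlap, with a score difference of 1.06 ± 0.33 (SE, n = 2 and 2), and limma gave an adjusted p of 0.334. Its peaks covered 13.9 and 22.5% of the window in 2iLIF and 29.9 and 53.5% in NACL. Spry2 (chr14:105891947-105896819, minus strand) differed more between clones than between media. It stood at 82.1 in 2iLIF B9 and 84.2 in NACL B9, and at 32.9 in 2iLIF B12 and 57.4 in NACL B12. Its score difference of 0.36 ± 0.44 (n = 2 and 2) was smaller than its error, and it fell to -0.32 without 2iLIF B12.

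Of the phosphatase genes, Dusp6 (chr10:99263231-99267489, plus strand) stood at 49.1 and 43.3 in 2iLIF B9 and B12, and at 58.3 and 67.3 in NACL. Dusp4 (chr8:34807297-34819894, plus strand, in a window shared with Tnks) stood at 29.6 and 33.9 in 2iLIF and at 36.1 and 59.6 in NACL. Neither gene overlapped between media, and the score difference was 0.42 ± 0.18 for Dusp6 and 0.42 ± 0.34 for Dusp4 (n = 2 and 2). Adjusted p was 0.47 for Dusp6 and 0.725 for Dusp4 (limma).

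Of the ETS factor genes, Etv4 (chr11:101769742-101785371, minus strand, in a window shared with Dhx8) stood at 55.5 and 52.4 in 2iLIF B9 and B12 and at 64.8 and 69.7 in NACL, a difference of 0.35 ± 0.23 (n = 2 and 2). Etv5 (chr16:22381309-22439719, minus strand, in a window shared with Dgkg) stood at 98.5 and 97.7 in 2iLIF and at 95.5 and 97.8 in NACL, with overlap. Egr1 (chr18:34859823-34864984, plus strand) stood at 55.6 and 52.3 in 2iLIF and at 71.9 and 61.5 in NACL, a difference of 0.34 ± 0.19 (n = 2 and 2). The Egr1 window also holds Kdm3b, Reep2 and Etf1, and within 2 kb of the Egr1 start itself NACL B9, NACL B12 and 2iLIF B9 had 1 H3K27ac peak each and 2iLIF B12 had none.

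H3K4me1 gave 2 calls. Spry4 and Etv4 were higher in NACL, and no member was lower, where 1.35% of 19824 windows were called higher and 2.22% lower. Etv4 stood at 56.3 and 45.4 in 2iLIF B9 and B12 and at 84.7 and 91.2 in NACL B9 and B12, a score difference of 1.17 ± 0.20 (n = 2 and 2; limma, adjusted p = 0.00892). Spry4 stood at 90.8 and 88.6 in 2iLIF and at 99.3 and 99.7 in NACL, a difference of 1.35 ± 0.30 (n = 2 and 2; adjusted p = 0.027). Within 2 kb of the start the Spry4 difference turned to -0.32 (adjusted p = 0.917) and that of Etv4 was 0.91 (0.916), and no member was called there. Peaks covered 4.49 and 9.75% of the Etv4 window in 2iLIF B9 and B12 and 13.5 and 14.4% in NACL, and 21.2 and 35.9% of the Spry4 window against 45.8 and 58.0%. The H3K4me1 lists of 2iLIF were the longer ones, with 33252 and 52599 peaks in B9 and B12 against 30698 and 24700 in NACL. With every H3K4me1 list held to its strongest 18627 peaks, Etv4 stayed called (adjusted p = 0.0399, limma) and Spry4 did not (0.106). Neither call held when 1 of 3 libraries was left out. Adjusted p for Etv4 was 0.0743 without 2iLIF B9, 0.1 without 2iLIF B12 and 0.052 without NACL B12, and for Spry4 it was 0.155, 0.15 and 0.0781. Without NACL B9 both calls stayed, at 0.00989 and 0.0267.

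Of the other members, Dusp4 stood at 32.3 and 26.6 for H3K4me1 in 2iLIF B9 and B12 and at 51.1 and 60.1 in NACL, without overlap but with an adjusted p of 0.172 (limma; difference 0.68 ± 0.27, n = 2 and 2). In all, 3 of 7 did not overlap and were higher, against 31.2% of all windows, and 0 were lower, against 23.6%. Spry2 followed the clone again, at 94.8 in 2iLIF B9 and 93.0 in NACL B9, and at 79.5 in 2iLIF B12 and 52.6 in NACL B12. Dusp6 went the other way round, at 55.9 in 2iLIF B9 and 46.8 in NACL B9 and at 82.2 and 82.7 in the B12 libraries. Etv5 lay between 97.8 and 99.0 in all 4 libraries, and Egr1 between 41.5 and 55.8. For each of these 4 genes the libraries of the media overlapped. Spry2 was lower in NACL within both clones for H3K4me1 and higher within both for H3K27ac, and with clone as a replicate block its adjusted p was 0.237 and 0.625 (limma).

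**Figure D2:**
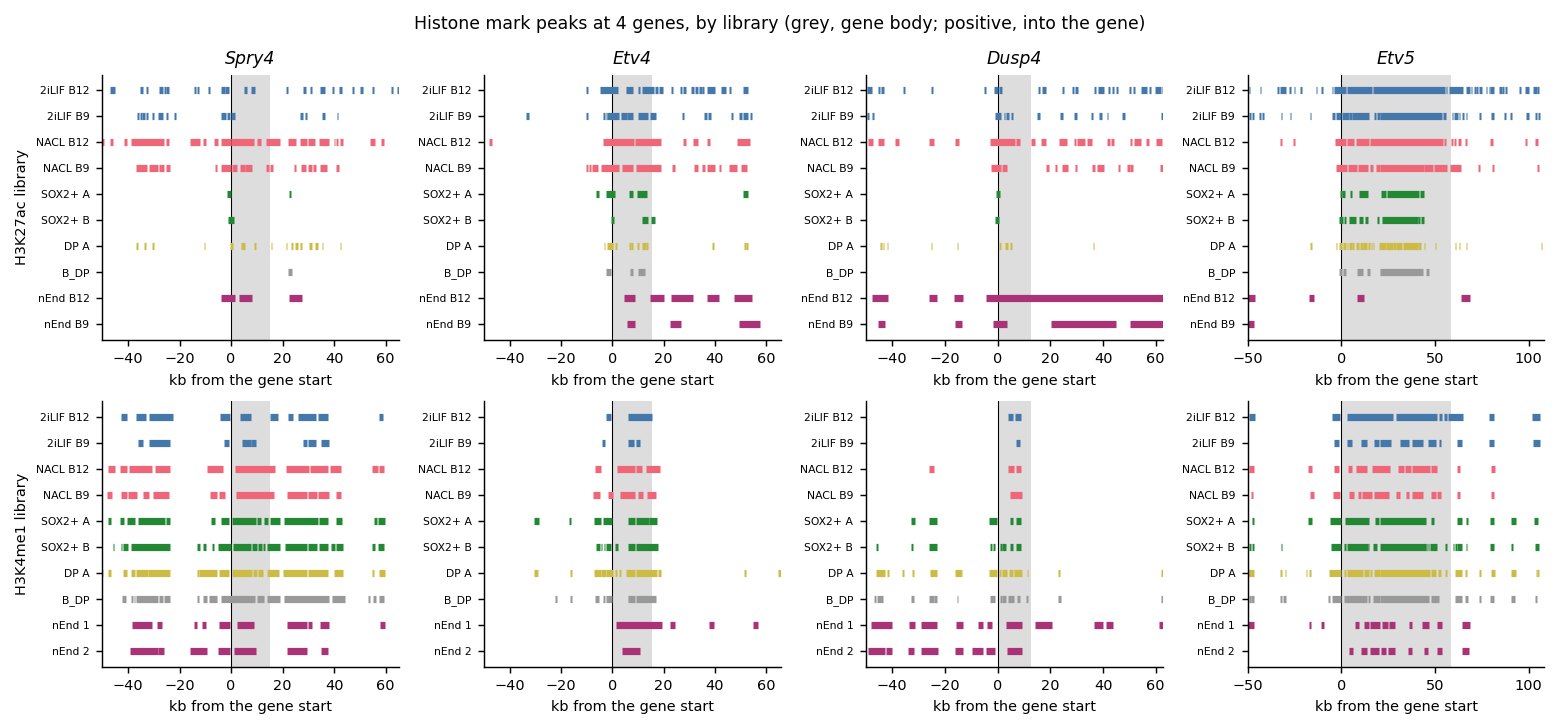
H3K27ac (top) and H3K4me1 (bottom) peaks as bars along the distance from the gene start (x axis, kb, positive into the gene) at Spry4, Etv4, Dusp4 and Etv5, with 1 row per library and the gene body in grey. At Etv4 the H3K4me1 bars from -7404 to -4547 bases stand in NACL and SOX2+ and are missing from 2iLIF and nEnd, and H3K27ac bars cover 2.11 and 9.24% of the Etv5 window in nEnd B9 and B12.

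The regions behind these values were found by merging the peaks of a condition and keeping regions with peaks of at least 2 libraries. In NACL, 4 of 30 H3K4me1 regions at the members (13.3%) had no peak in either 2iLIF library, against 3.76% of NACL regions genome-wide. When a peak in any 1 library was enough to keep a region, the share was 7 of 44 (15.9%), against 14.3% genome-wide. Counted from the gene start, with negative values upstream, 1 ran from -7404 to -4547 bases at Etv4 and 1 from -17816 to -14717 bases at Etv5. Spry4 had the other 2, from -47989 to -45060 bases and from 38508 to 42842 bases. The Etv4 region also had an H3K4me1 peak in both SOX2+ libraries and in the DP library, and none in nEnd. The downstream Spry4 region showed the same presence and absence. In the other direction, 2 of 26 H3K4me1 regions of 2iLIF (7.69%) had no NACL peak, against 27.3% genome-wide.

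For H3K27ac, 4 of 53 NACL regions (7.55%) had no 2iLIF peak, close to the 7.71% genome-wide, and 6 of 59 2iLIF regions (10.2%) had no NACL peak, against 17.4%. The 4 NACL regions lay at the Sprouty genes, 2 at Spry2 and 2 at Spry4. Of the 6 2iLIF regions, 4 lay at Etv5, 1 at Dusp4 and 1 at Egr1. Spry4 had 7 kept H3K27ac regions over 12692 bases in 2iLIF and 11 regions over 47953 bases in NACL. No test was made on regions, since regions of a gene come from the same libraries.

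SOX2, the pluripotency factor, had peaks at 6 of the 7 genes in each 2iLIF list, where 47.8 and 35.5% of all windows held one in B9 and B12. It had them at 7 and 6 genes in NACL B9 and B12, where 71.8 and 55.3% of all windows did. Dusp4 had no SOX2 peak in 2iLIF and 2 in each NACL library. Over the members, NACL kept 28 SOX2 regions and 2iLIF 17, and the NACL lists were also the longer ones, with 29623 and 17111 peaks against 13177 and 8203. Of the NACL regions, 8 (28.6%) had no 2iLIF peak, against 35.4% genome-wide, and 0 of the 17 2iLIF regions lacked a NACL peak, against 2.09% genome-wide. The 8 regions lay at 6 genes. Etv5 and Spry2 had 2 each, and Spry4, Dusp4, Dusp6 and Etv4 had 1 each. The downstream Spry2 site and the Dusp4 promoter site printed above are 2 of them.

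**Figure D3:**
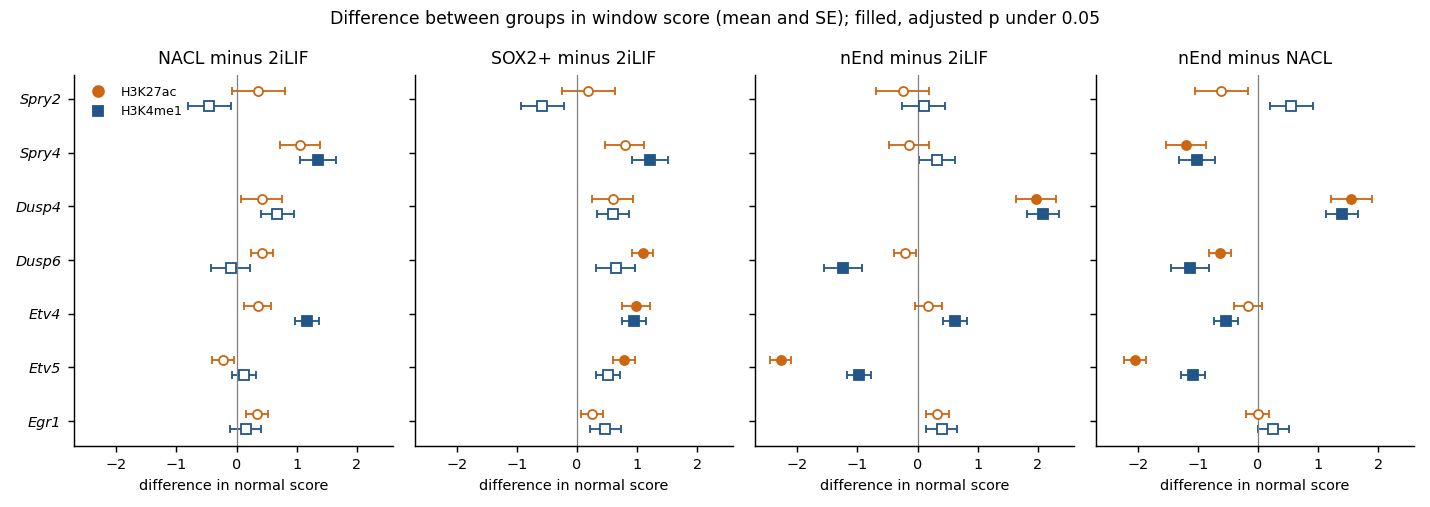
Score difference (x axis, normal score units) of 2 libraries against 2 for each gene (y axis) in 4 comparisons. Bars are the SE of the fit over all 4 groups. Circles stand for H3K27ac and squares for H3K4me1, and filled symbols had an adjusted p under 0.05. Filled symbols in NACL minus 2iLIF are Spry4 and Etv4 for H3K4me1 (1.35 and 1.17), and the lowest value is that of Etv5 for H3K27ac in nEnd minus 2iLIF (-2.28).

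SOX2+ cells, sorted from KOSR culture, were next set against 2iLIF. This comparison shares its 2iLIF libraries with the one above, and only clone B12 stands on the SOX2+ side. For H3K27ac, 3 of 7 genes were called higher and 0 lower, where 18.9% of all windows were called higher and 13.1% lower. Of 7 naive markers, 4 were called higher and 0 lower, and of 9 PrE markers 0 higher and 1 lower. Dusp6 stood at 88.5 and 78.3 in SOX2+ A and B, Etv4 at 92.3 and 76.9 and Etv5 at 99.8 and 99.8, each above both 2iLIF libraries. The score differences were 1.09 ± 0.18 for Dusp6, 0.98 ± 0.23 for Etv4 and 0.78 ± 0.18 for Etv5 (n = 2 and 2), with adjusted p of 0.0053, 0.017 and 0.017 (limma). The SOX2+ lists were far shorter, with 13514 and 14722 peaks against 232779 and 401853 in 2iLIF. With every list held to its strongest 13514 peaks, the difference was 0.83 for Dusp6, 1.0 for Etv4 and 0.48 for Etv5 with adjusted p of 0.0532, 0.144 and 0.341 (limma), and none of the 3 stayed called. Dusp6 kept its call in 10 of 12 alternatives, among them all 4 that leave out a library (0.00873 to 0.0391). Spry4, not called with the full lists (0.104), was then called higher, with a difference of 1.21 ± 0.20 (n = 2 and 2; adjusted p = 0.0182). The Etv4 call was also lost without 2iLIF B9 (0.0755) or 2iLIF B12 (0.0987), and the Etv5 call without any 1 of the 4 libraries (0.0549 to 0.102).

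For H3K4me1 the SOX2+ comparison called Spry4 and Etv4 higher and 0 members lower, where 4.0% of windows were called higher and 5.39% lower. Of 7 naive markers, 1 was called higher and 0 lower, and of 9 PrE markers 0 higher and 1 lower. Spry4 stood at 99.3 and 99.4 and Etv4 at 84.3 and 82.1 in SOX2+ A and B. The differences from 2iLIF were 1.21 ± 0.30 for Spry4 and 0.94 ± 0.20 for Etv4 (n = 2 and 2; limma, adjusted p = 0.0212 and 0.00963). Spry4 lost its call without 2iLIF B9 (0.133), 2iLIF B12 (0.107) or SOX2+ B (0.0533), and Etv4 lost it without any 1 of the 4 libraries (0.0611 to 0.118). SOX2 had peaks at all 7 genes in each of the 3 SOX2+ lists, where 55.6, 63.7 and 42.3% of all windows held one in A, A1 and B. Etv5 had 18, 21 and 11 SOX2 peaks in SOX2+ A, A1 and B, and 11 and 7 in 2iLIF B9 and B12. These lists held 16819, 20609 and 10513 SOX2 peaks in SOX2+, and 13177 and 8203 in 2iLIF. By rank the Etv5 window stood at 99.8, 99.8 and 99.5 in SOX2+ and at 98.7 and 98.8 in 2iLIF.

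DP cells can be described but not tested for the histone marks. In the single DP library, H3K27ac stood at 82.2 for Spry2, 81.3 for Spry4, 56.8 for Dusp4, 77.7 for Dusp6, 76.9 for Etv4, 99.7 for Etv5 and 65.9 for Egr1. All 7 stood above both 2iLIF libraries and 0 below, against 42.3% of all windows above and 38.3% below, and Spry2 did so by a margin of 82.2 over 82.1. H3K4me1 stood at 76.5 for Spry2, 98.9 for Spry4, 71.8 for Dusp4, 91.4 for Dusp6, 76.2 for Etv4, 99.1 for Etv5 and 61.8 for Egr1. Of these, 6 stood above both 2iLIF libraries, against 43.2% of all windows, and 1, Spry2, stood below both, against 36.0%. In the B_DP libraries, given apart, H3K27ac stood at 80.2 for Spry2, 48.5 for Spry4, 72.0 for Dusp6, 76.1 for Etv4, 99.6 for Etv5 and 68.7 for Egr1. Dusp4 had no H3K27ac peak there. B_DP H3K4me1 stood at 73.1 for Spry2, 98.7 for Spry4, 63.7 for Dusp4, 88.5 for Dusp6, 77.6 for Etv4, 99.4 for Etv5 and 57.0 for Egr1.

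Both factors were mapped in DP cells, and there Spry2 had the most GATA6 peaks of the members. It had 3, 3 and 2 GATA6 peaks in DP A, A1 and B, and its window stood at 99.4, 99.2 and 99.2. The other members had 0 to 2 GATA6 peaks in any DP list, and Spry4, Etv4 and Egr1 had none. Of the members, 4, 3 and 1 had a GATA6 peak in DP A, A1 and B, where 39.7, 21.7 and 8.66% of all windows held one. The upstream Spry2 site had its highest point at -4055 bases from the start, with a signal above 98.1% of all peaks of DP A. SOX2 overlapped it in DP A and A1 and in NACL B9, and in no 2iLIF or SOX2+ list. The DP B list was short, with 1391 GATA6 peaks and 1378 SOX2 peaks.

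The 3 DP lists had 14, 14 and 2 SOX2 peaks over the 7 windows, against 27 to 42 in SOX2+ lists and 17 to 50 in 2iLIF and NACL. The DP lists were also shorter over the whole genome, with at most 5320 SOX2 peaks against at least 8203 elsewhere. A SOX2 peak lay in 26.1, 27.2 and 8.75% of all windows in DP A, A1 and B, and in 55.6, 63.7 and 42.3% in SOX2+ A, A1 and B. With so few windows filled in DP B, any 1 peak gives a high percentile, and Spry2 and Etv5 had 1 each there. By rank within the list, Spry2 stood at SOX2 percentiles of 96.0, 94.7 and 93.3 in DP A, A1 and B and of 90.8, 85.7 and 94.2 in SOX2+ A, A1 and B. Etv5 stood at 93.6, 98.2 and 92.4 in DP and at 99.8, 99.8 and 99.5 in SOX2+, and it had 3, 5 and 1 SOX2 peaks in DP A, A1 and B. The intronic Etv5 site remained in all 3, and the downstream Spry2 site did too. At the downstream Dusp6 site SOX2 and GATA6 peaks overlapped in DP A and A1. The SOX2 peaks were highest 30088 and 30123 bases from the Dusp6 start, and the GATA6 peaks 30132 and 30141 bases from it.

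**Figure D4:**
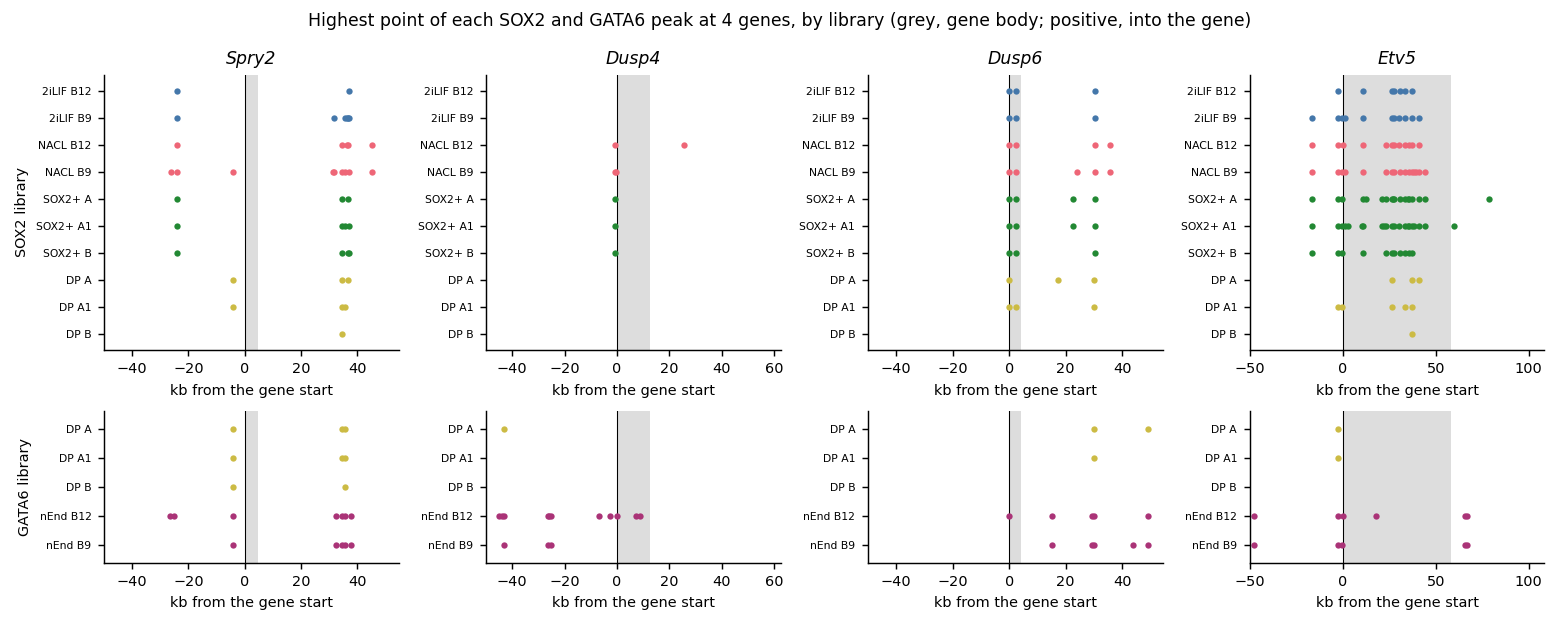
Highest point of each SOX2 (top) and GATA6 (bottom) peak by distance from the gene start (x axis, kb, positive into the gene) at Spry2, Dusp4, Dusp6 and Etv5, with 1 row per library and the gene body in grey. Etv5 has 11 to 21 SOX2 points in the SOX2+ rows and 1 to 5 in the DP rows, and Dusp4 has 11 and 3 GATA6 points in the nEnd rows.

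The nEnd libraries show what became of the genes in PrE-like cells. For H3K27ac, Dusp4 was called higher and Etv5 lower than in 2iLIF over the whole window, where 25.0% of all windows were called higher and 22.6% lower. Etv5 stood at 33.7 and 51.0 in nEnd B9 and B12 against 98.5 and 97.7 in 2iLIF, a difference of -2.28 ± 0.18 (n = 2 and 2; limma, adjusted p = 0.000262). Peaks covered 2.11 and 9.24% of its window in nEnd against 47.6 and 60.6% in 2iLIF, and neither nEnd library had a peak within 2 kb of its start. Its call held under all 12 alternatives, with adjusted p from 0.000619 to 0.00477. Dusp4 stood at 83.6 and 97.8 in nEnd B9 and B12 against 29.6 and 33.9 in 2iLIF, a difference of 1.97 ± 0.34 (n = 2 and 2; adjusted p = 0.00319).

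At Dusp4 the signal in nEnd came from broad peaks. In nEnd B12 a single peak of 79920 bases ran from -4430 to 75489 bases from the start, over the Dusp4 gene body and on into the neighbouring Tnks. In nEnd B9 the broad peaks, of 24520 and 25267 bases, lay inside Tnks, and a peak of 5278 bases lay over the Dusp4 start. Within 2 kb of the Dusp4 start the difference from 2iLIF was 0.45, with an adjusted p of 0.32 (limma), and no other of the 12 alternatives lost the call. With 10 kb on each side it was 1.14 (adjusted p = 0.0465). GATA6 had 11 and 3 peaks at Dusp4 in nEnd B12 and B9, and the upstream Dusp4 site, at -43317 bases from the start, had a signal above 97.2% of all peaks of nEnd B12.

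Against NACL, which shares its nEnd libraries with the comparison above, Dusp4 was called higher for H3K27ac, and Spry4, Dusp6 and Etv5 were called lower, where 23.5% of windows were called higher and 21.5% lower. Spry4 stood at 14.9 and 44.8 in nEnd B9 and B12, and nEnd B9 had no H3K27ac peak in the Spry4 window. Dusp6 stood at 41.1 and 35.1. The differences were 1.55 ± 0.34 for Dusp4, -1.20 ± 0.33 for Spry4, -0.63 ± 0.18 for Dusp6 and -2.05 ± 0.18 for Etv5 (n = 2 and 2), with adjusted p of 0.00877, 0.0209, 0.0264 and 0.000405 (limma). The Spry4 call was lost without NACL B12 (0.139) or nEnd B9 (0.101), and the Dusp4 call without NACL B9 (0.0783). With 10 kb on each side in place of 50 kb the Dusp4 difference was 0.68 (adjusted p = 0.187), and within 2 kb of the start it was 0.09 (0.917). Dusp6 lost its call without any 1 of the 4 libraries (0.0587 to 0.138). Etv4 was not called over its whole window, but neither nEnd library had an H3K27ac peak within 2 kb of its start, where each 2iLIF, NACL and SOX2+ library had 1. In that 2-kb window Etv4 was called lower in nEnd, by -1.74 ± 0.26 against NACL and -1.53 ± 0.26 against 2iLIF (n = 2 and 2; limma, adjusted p = 0.00539 and 0.00791).

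For H3K4me1, Dusp4 and Etv4 were called higher in nEnd than in 2iLIF and Dusp6 and Etv5 lower, where 18.9% of windows were called higher and 20.6% lower. Dusp4 stood at 86.1 and 97.7 in nEnd 1 and 2, Etv4 at 74.2 and 74.1, Dusp6 at 27.9 and 20.6 and Etv5 at 78.5 and 91.4. Dusp6 had no H3K4me1 peak in nEnd 2. The differences were 2.09 ± 0.27 for Dusp4, 0.63 ± 0.20 for Etv4, -1.24 ± 0.32 for Dusp6 and -0.97 ± 0.20 for Etv5 (n = 2 and 2), with adjusted p of 4.01e-05, 0.0214, 0.0067 and 0.00124 (limma). Dusp6 lost its call without 2iLIF B12 (0.116) or nEnd 2 (0.054), and Etv4 lost it without 2iLIF B12 (0.156). Within 2 kb of the start the Etv4 difference turned to -0.19.

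Against NACL, H3K4me1 in nEnd was called higher at Dusp4 and lower at Spry4, Dusp6, Etv4 and Etv5, where 16.9% of windows were called higher and 17.8% lower. The differences were 1.40 ± 0.27 for Dusp4, -1.02 ± 0.30 for Spry4, -1.13 ± 0.32 for Dusp6, -0.54 ± 0.20 for Etv4 and -1.09 ± 0.20 for Etv5 (n = 2 and 2). Adjusted p was 0.00108, 0.0153, 0.013, 0.0467 and 0.000569 (limma). The Etv4 call was lost with clone as a replicate block (0.0874) and without NACL B12 (0.303), nEnd 1 (0.0569) or nEnd 2 (0.07). Spry4 lost its call without NACL B12 (0.0613) or nEnd 1 (0.11), and within 2 kb of the start its difference turned to 0.62. Dusp6 lost its call without NACL B12 (0.171) or nEnd 2 (0.0898). Over all 12 alternatives, Etv4 kept its call against NACL in 2 and its call against 2iLIF in 6.

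GATA6, a PrE factor, had more peaks at the members in nEnd, with 37 and 24 in B12 and B9, than in DP, with 7, 5 and 2. The nEnd GATA6 lists were also the longer ones, with 32510 and 24223 peaks against at most 8316. All 7 genes had a GATA6 peak in nEnd B12 and 6 had one in nEnd B9, where Spry4 had none, and 70.2 and 65.9% of all windows held one in these lists. Dusp6 had 5 GATA6 peaks in each nEnd list, Etv5 6 and 5 in nEnd B12 and B9, Spry2 7 and 5, Egr1 4 and 3, and Etv4 2 and 3. At Etv5 the GATA6 site nearest the start, at -116 bases, was shared by both nEnd libraries.

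Other genes of the pathway were read from 2 lists in the NACL minus 2iLIF comparison. Of 22 further ERK targets and feedback genes, 0 were called for H3K27ac, where 0.0% of all windows were called. For H3K4me1 1 was called higher and 0 lower, where 1.35% of all windows were called higher and 2.22% lower. That gene was Spred1, an inhibitor of RAS signalling, with mean percentiles of 52.3 in 2iLIF and 88.4 in NACL and a difference of 1.14 ± 0.21 (n = 2 and 2; limma, adjusted p = 0.0113). Of 22 components of the FGF/ERK cascade, 0 were called for either mark. The median H3K4me1 score difference was 0.15 for the targets, 0.10 for the cascade components and 0.01 over all windows. Of 7 naive markers, only Zfp42 was called, lower for H3K4me1 (-0.72 ± 0.19, n = 2 and 2; adjusted p = 0.0448), and of 9 PrE markers none was.

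In nEnd minus 2iLIF, 7 of the 22 targets were called higher and 5 lower for H3K27ac, where 25.0% and 22.6% of all windows were. For H3K4me1, 2 targets were higher and 8 lower, where 18.9% and 20.6% of all windows were. Of the cascade components, 5 were higher and 3 lower for H3K27ac, and 1 higher and 8 lower for H3K4me1. In SOX2+ minus 2iLIF, the targets had 6 higher and 4 lower for H3K27ac, beside 18.9% and 13.1% of all windows, and 4 higher and 0 lower for H3K4me1, beside 4.0% and 5.39%. The cascade components had 3 higher and 2 lower for H3K27ac and 2 higher and 0 lower for H3K4me1.

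The 5 genes outside the members' windows whose H3K27ac score followed the members' mean most closely over the 8 libraries were Rab1a, Ndufb6, Phlda1, Ift22 and Got1. Pearson's r lay between 0.9638 and 0.9735 over 8 libraries, as a description, since they were picked from all windows for this value. Phlda1 is itself among the ERK targets listed. It stood at 74.4 and 69.3 in 2iLIF B9 and B12, at 83.6 and 86.9 in NACL, at 92.8 and 86.9 in SOX2+ and at 54.3 and 81.5 in nEnd.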

How the data were processed

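CUT&RUN was run on SGGC cells that had been passaged 4 or more times in the medium named. Per the submitters' processing notes and the methods, the authors used cutadapt 1.18 for trimming, Bowtie2 2.3.4.1 for alignment to mm10 (GRCm38), and SAMtools 1.9, Picard 2.9.1, bedtools 2.27.1 and deepTools 3.2.0 for the steps between. SEACR then called the peaks of each library, with IgG of the same condition as control. The deposited lists hold, for each peak, its summed and its highest signal (coverage) on a scale of each library's own. Their names say relaxed mode for histone marks and stringent for factors, and the methods state the reverse. The 18 IgG samples have no list here. The label of the NACL SOX2 library of B12 names IgG as source, and the DP GATA6 library A ends in sub02, unexplained.

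Only the autosomes and the sex chromosomes entered, with gene models of GENCODE M21. Each gene window summed the signal of its peaks by the share inside, windows were ranked within a library, and normal scores were fitted with limma 3.58.1 (R 4.3.3), with the 4 groups of 2 libraries sharing 1 spread and Benjamini-Hochberg adjustment over all windows with a peak. An exact permutation test of 2 against 2 cannot pass a threshold of 0.05. The fit was tested on simulated data. Overlap meant at least 1 base. Clones B9 and B12 are shared cell lines, so they pair 2iLIF with NACL; the B9 minus B12 deviations of the media correlated with r = 0.327 for H3K27ac and 0.192 for H3K4me1. Alternatives changed the measure, window, peak filter, list length, samples and block. Named genes are the members, up to 3 genes a list called in NACL minus 2iLIF with the largest difference, and the 5 most alike genes. The genes and lists were chosen with earlier results of these data known. P-values rest on the spread between the 2 libraries of a group, pooled over the 4 groups of a mark and moderated by limma over all windows. The SE printed with each score difference comes from the same fit.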

Additional observations from a re-analysis of the deposited data

Results flagged for a closer look

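Both B_DP histone libraries lie outside all comparisons, because their title and their source name give different sorted populations. The B_DP H3K27ac list, of 19185 peaks, had peaks at 6 of the 7 genes and in 56.6% of all windows, and the B_DP H3K4me1 list, of 94492 peaks, had peaks at all 7 and in 87.4% of all windows. They are given because no comparison uses these libraries. Groups held at most 3 libraries, so no library was tested as standing apart.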

How the results depend on the processing

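The 22 called differences of single genes were recomputed under 264 alternatives in all, of which 170 kept the call and 94 lost it. Members not called in the report gained a call 18 times. Over these and the uncalled NACL minus 2iLIF differences, 14 changed sign. Etv5 for H3K27ac in nEnd stayed called against both media under all 12 alternatives. With clone as a replicate block the number of members called was 2 for H3K4me1 in NACL minus 2iLIF, 2 in SOX2+ minus 2iLIF and 4 in both nEnd comparisons, and for H3K27ac 0, 3, 2 and 4. The block took the Etv4 H3K4me1 call in nEnd minus NACL and no other member's call. It gave 1172 called windows in place of 709 for H3K4me1 in NACL minus 2iLIF, and 1137 in place of 1860 in SOX2+ minus 2iLIF.

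Members called for H3K4me1 in NACL minus 2iLIF, 2 in the report, were 1 by the strongest peak, by covered bases or with equal peak numbers, and 0 within 2 kb of the start. They were 0 to 2 with 1 library left out. In SOX2+ minus 2iLIF, 2 in the report, they were 0 by the strongest peak or at the start, 1 by covered bases or equal numbers, 7 with only the 2 groups in the fit (6 higher and Spry2 lower by -0.58, among 6178 called windows), and 0 to 1 with 1 library left out. In nEnd minus 2iLIF, 4 in the report, they were 2 by the strongest peak, 0 at the start and 2 to 5 with 1 left out. In nEnd minus NACL, 5 in the report, they were 2 by the strongest peak or with 10 kb flanks, 1 at the start, 3 with equal numbers and 2 to 6 with 1 left out. For H3K27ac, SOX2+ minus 2iLIF gave 0 by the strongest peak, 1 at the start, 1 with equal numbers (Spry4, higher, not among the 3), 4 with only the 2 groups in the fit (Spry4 and Dusp4 gained) and 1 to 2 with 1 left out, in place of 3, and nEnd minus NACL gave 2 to 3 with 1 left out in place of 4. In SOX2+ minus 2iLIF Spry4 was also called higher for H3K27ac with 10 kb flanks (1.19). For H3K27ac in nEnd minus 2iLIF there were 2 or 3 members called under every alternative. Gained calls there were Egr1 higher with 10 kb flanks (0.99, also 0.81 against NACL), Etv4 (-1.53) and Dusp6 (-0.72) lower at the start, and Dusp6 lower with the stronger 50% of peaks (-0.78). The cause was not tested; 2-kb windows test fewer bases and a left-out library leaves fewer samples.

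Called windows over all genes ranged from 0 to 841 for H3K27ac and from 1 to 1172 for H3K4me1 in NACL minus 2iLIF, and in SOX2+ minus 2iLIF from 1980 to 7342 around 6815 and from 140 to 6178 around 1860. In nEnd minus 2iLIF they ranged from 4221 to 10168 around 10148 and from 1209 to 8103 around 7819, and in nEnd minus NACL from 4042 to 9530, all below the 9571 of the report, and from 1037 to 7842 around 6874.

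Sign changes in NACL minus 2iLIF came at genes not called, apart from Spry4 for H3K4me1 (-0.32 within 2 kb of the start). Spry2 for H3K27ac went to -0.17 by the strongest peak, -0.32 without 2iLIF B12 and -0.05 without NACL B9, and to 1.04 without 2iLIF B9. For H3K4me1, Dusp6 went to 0.07 by the strongest peak, 0.44 with 10 kb flanks, 0.28 without 2iLIF B12 and 0.41 without NACL B9 (lowest -0.62, without NACL B12). Spry2 went to 0.08 at the start and 0.26 without NACL B12 (lowest -1.16, without NACL B9), Egr1 to -0.02 with equal numbers and Etv5 to -0.02 without NACL B12. At the start, Etv4 in nEnd minus 2iLIF went to -0.19 and Spry4 in nEnd minus NACL to 0.62.

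Keeping regions with a peak in any library gave 25 of 117 NACL H3K27ac regions without a 2iLIF peak (21.4%, genome-wide 25.4%), 48 of 170 in reverse (28.2%, 45.8%), 7 of 44 and 11 of 45 for H3K4me1 (15.9%, 14.3%, and 24.4%, 52.1%) and 26 of 51 for SOX2 in NACL (51.0%, 60.4%). The stronger 50% of peaks gave 3 of 31 2iLIF H3K27ac regions without a NACL peak (genome-wide 15.1%), 2 of 16 NACL and 0 of 15 2iLIF regions for H3K4me1 (6.0% and 30.0%) and 5 of 18 NACL regions for SOX2 (36.9%). With 10 kb flanks these were 2 of 16, 1 of 18, 0 of 12 and 3 of 18. The unknown depth and the list lengths limit how many regions a library can show.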
